A study of Mus musculus with 4 samples.

Results

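The genes described here are the mouse zinc finger genes whose symbol is Zfp followed by a digit. The table held 141 such symbols among 9997, and 123 of them reached the inclusion level of 1 FPKM in at least 1 of the 4 libraries; FPKM is the number of sequenced fragments per kilobase of transcript, scaled to the mapped fragments of the library. These 123 genes are called the Zfp members below, and 5885 symbols of all kinds passed the same level and serve as the background. RNA came from embryoid bodies, the aggregates formed in suspension by embryonic stem cells, of the mouse line ES-E14TG2a. One library stood for each of 4 groups, namely a control and 3 groups given all-trans retinoic acid (ATRA), labelled 0, 6 and 10 days. ATRA, the signalling form of vitamin A that is used to steer such cells towards neurons, was added at a dose of 5 µM when the aggregates were 4 and 6 days old, and they were moved onto dishes coated with poly-ornithine and laminin after 8 days. The labels leave unsaid how old the control bodies were and which libraries preceded that move, so in these comparisons ATRA, culture age and plating cannot be told apart. No library has a replicate, so no test was made, and each difference below describes these 4 libraries alone.

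Zfp is the mouse prefix for zinc finger proteins that were numbered without regard to function, so the group is a naming group with a large family inside it. Most of that family carries tandem C2H2 fingers, small folds held by a zinc ion that each read a few bases of DNA, together with an N-terminal KRAB box. The KRAB box recruits the corepressor Trim28 (KAP1), which brings histone H3 lysine 9 methylation, heterochromatin protein 1 and DNA methylation to the bound site, and in embryonic stem cells these proteins are known for silencing endogenous retroelements and for keeping methylation at imprinted genes. Other Zfp proteins bind RNA, act at ribosomes or the spindle, or regulate genes without a KRAB box. A match of the translated reference transcripts to a KRAB pattern put 73 members in the KRAB class and 50 outside it. KRAB members had a median of 12 C2H2 fingers and the others a median of 5. The most fingers were counted in Zfp142, with 41, among the members without KRAB, and in Zfp729b, with 30, among the KRAB members. A SCAN box, a domain for pairing with other SCAN proteins, was found in 6 members, Zfp191, Zfp213, Zfp263, Zfp287, Zfp369 and Zfp397. All 123 members had a position on the mouse build mm10, all on chromosomes 1 and 10 to 18; Zfp genes of the other chromosomes were not analysed here. The symbol Zfp191 was placed through the gene's current name, Zfp24.

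The members were chosen by their FPKM, taken as the highest of the 4 libraries. Those just inside it were Zfp750 (1.13 FPKM in its highest library), Zfp169 (1.24), Zfp273 (1.33), Zfp641 (1.42) and Zfp758 (1.48), and the symbols just outside were Zfp712 (0.989 FPKM), Zfp433 (0.883), Zfp174 (0.762), Zfp677 (0.465) and Zfp879 (0.399). The other 13 of the 18 symbols left out stood lower still, and Zfp648 had a value of 0 in every library. The values are FPKM without counts, and the worth of 1 fragment was estimated from the lowest values of genes with a single transcript, which gave about 24500000 fragments for the control and 26400000, 25200000 and 27300000 at 0, 6 and 10 days. At 1 FPKM a transcript of 1 kb then rests on 24.5 to 27.3 fragments, with a counting error of 19.1% to 20.2%, and at 5 FPKM the error is 8.56% to 9.03%; these cover counting error only. A difference is the difference of log2(FPKM + 1), which understates changes of low genes, and a gene is called higher or lower at 2-fold or more on that scale. In bulk RNA, fewer cells of a type and less RNA per cell cannot be told apart.

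The summed FPKM of marker lists differed between the libraries. Pluripotent cell markers (9 of 13 in the table, Pou5f1 among them) summed to 2319 FPKM in the control and to 188, 276 and 247 FPKM at 0, 6 and 10 days. Germ cell markers (4 of 6) summed to 19.6, 147, 26.1 and 25.04 FPKM in the same order, with their high value at 0 days. Endoderm markers (10 of 12) summed to 206, 425, 2910 and 4211 FPKM, of which Sparc alone gave 133, 259, 1862 and 2711 FPKM, while Sox7 was highest at 0 days and Dab2 and Gata4 at 6 days. Trophoblast markers (4 of 7) stood at 0.403, 3.83, 178 and 318 FPKM, with Tpbpa, Prl2b1 and Prl3d1 listed at 0 at 0 days. Krt7 gave most of that sum in the ATRA libraries, at 3.83, 140 and 260 FPKM. At 10 days Tpbpa and Prl2b1 were at 28.0 and 29.4 FPKM and Prl3d1 at 0.724 FPKM. Neural markers (7 of 14) summed to 8.88, 14.8, 112 and 53.0 FPKM, highest at 6 days. Nefl and Fabp7 gave most of that highest sum, at 39.6 and 35.9 FPKM. Each neural marker in the table was highest at 6 days except Nefm, which was highest at 10 days, at 0.364 FPKM. Muscle markers (6 of 8) gave 50.05, 14.8, 69.0 and 317 FPKM. Of these sums Tnnc1 gave 1.54, 2.05, 45.7 and 217 FPKM. Myl4 went the other way, at 35.6, 1.98, 4.12 and 13.3 FPKM, highest in the control. Mesenchyme markers (5 of 7) gave 1.24, 6.90, 50.1 and 103 FPKM, with Lum listed at 0 in the control and at 0 days. Blood and endothelial markers (3 of 7) gave 21.1, 1.37, 4.50 and 4.04 FPKM, with Hba-a1 listed at 0 in the same 2 libraries and Pecam1 giving nearly all of the control value. The part of all these cell types in the Zfp values was not tested.

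By the median the Zfp members were highest in the ATRA library labelled 0 days and lowest in that labelled 10 days. That level ran from 4.67 FPKM in the control through 5.24 (0 days) and 3.80 (6 days) to 3.24 FPKM (10 days), while the median of all 5885 tested symbols was 9.51, 9.46, 9.10 and 9.43 FPKM. The summed FPKM of the members was instead highest in the control, at 1638, of which Zfp57 alone gave 362, against 1223, 984 and 932 at 0, 6 and 10 days. At 0 days 63 of 123 members had their highest value (22.5% of all tested symbols did), and at 10 days 7 did (29.6%). Of the rest, 39 members were highest in the control (38.2%) and 14 at 6 days (9.65%). The lowest value fell at 10 days for 75 members (28.5% of all tested symbols), in the control for 29 (33.6%), at 6 days for 11 (12.9%) and at 0 days for 8 (24.9%). The plot of the highest and lowest library shows the same shift away from the background in both protein classes.

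**Figure D1:**
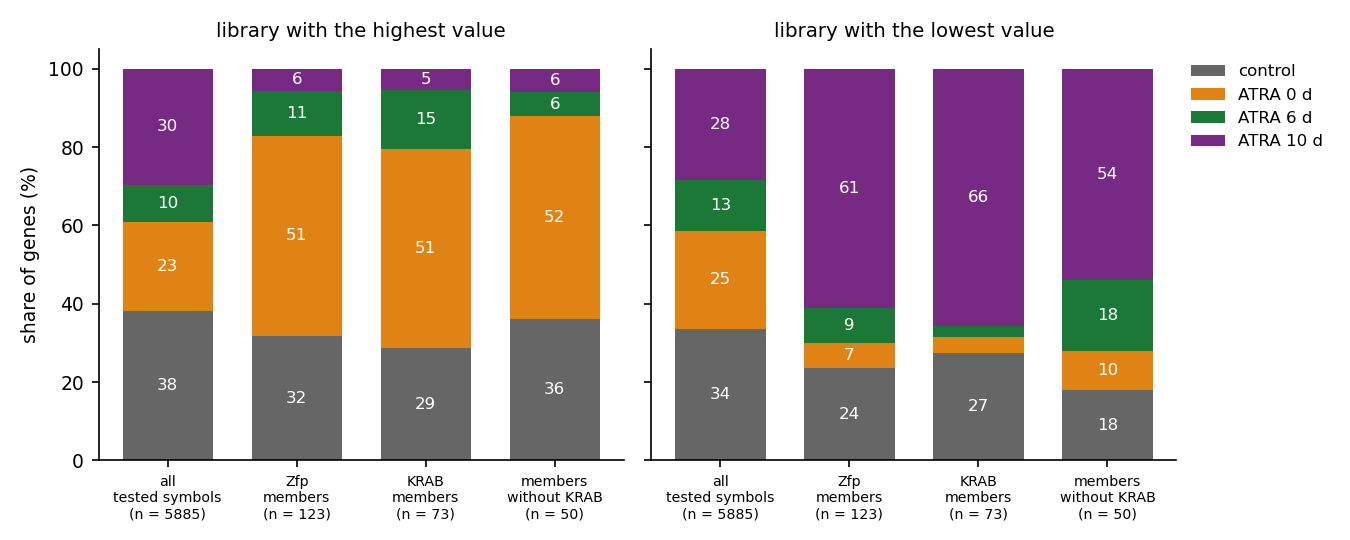
Share of genes (y axis, %) by the library in which each gene had its highest value (left) and its lowest value (right), for all tested symbols, the Zfp members, and the members with and without a KRAB box. In the Zfp columns the largest block is 0 days on the left and 10 days on the right, at 63 and 75 of 123 members.

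Across the ATRA libraries the members moved down step by step, and most by less than 2-fold. The level fell from 0 to 6 days and again from 6 to 10 days in 77 of 123 members, against 26.5% of all tested symbols, and rose at both steps in 6, against 29.4%. From 0 to 6 days 92 members were lower by any amount (48.7% of all tested symbols), with a median difference of -0.27 beside 0.01 for all. From 6 to 10 days 102 were lower by any amount (48.1%), with a median of -0.28 beside 0.02. Between 0 and 10 days 106 were lower by any amount (48.7%) and 17 higher, with a median of -0.57 beside 0.02. These comparisons share libraries, so their counts are not separate evidence.

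The number of 2-fold calls depended on the pseudocount and scaling. Between 0 and 6 days 2 members were called lower, Zfp36l1 and Zfp318, and 0 higher, where 4.88% and 8.22% of all tested symbols were called. From 6 to 10 days 0 members were called in either direction (0.85% lower and 3.7% higher in the background). Between 0 and 10 days 15 members, or 12.2%, were called lower and 0 higher, against 7.6% and 14.4%. With a pseudocount of 0.1 the count lower was 43, against 12.4%, and with upper-quartile scaling 29, against 10.4%. The upper tail of the group was short: its largest rise between 0 and 10 days was 0.68, in Zfp707, while 5% of all tested symbols rose by 1.83 or more.

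Against the control the picture was mixed at 0 days and lower at 10 days. At 0 days 10 members were called higher and 8 lower, against 12.2% and 12.8% of all tested symbols, and 45 were lower by any amount (52.3%); the median difference was 0.16 beside -0.04. At 10 days 22 members, or 17.9%, were called lower (17.1%) and 1 higher (19.6%), with 86 lower by any amount (51.3%) and a median of -0.40 beside -0.04. The share called lower at 10 days was near the background on this scale, and again with median-ratio scaling, at 18 of 124 members against 13.1%. With a pseudocount of 0.1 it lay further above the background, at 34 of 123 members against 20.7%. At 0 days both other scalings left 4 members called lower, and a pseudocount of 0.1 gave 17 called higher, against 18.9%. Upper-quartile scaling moved the median of all tested symbols by 0.19 for 0 days minus control, and that of the members to 0.35.

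**Figure D2:**
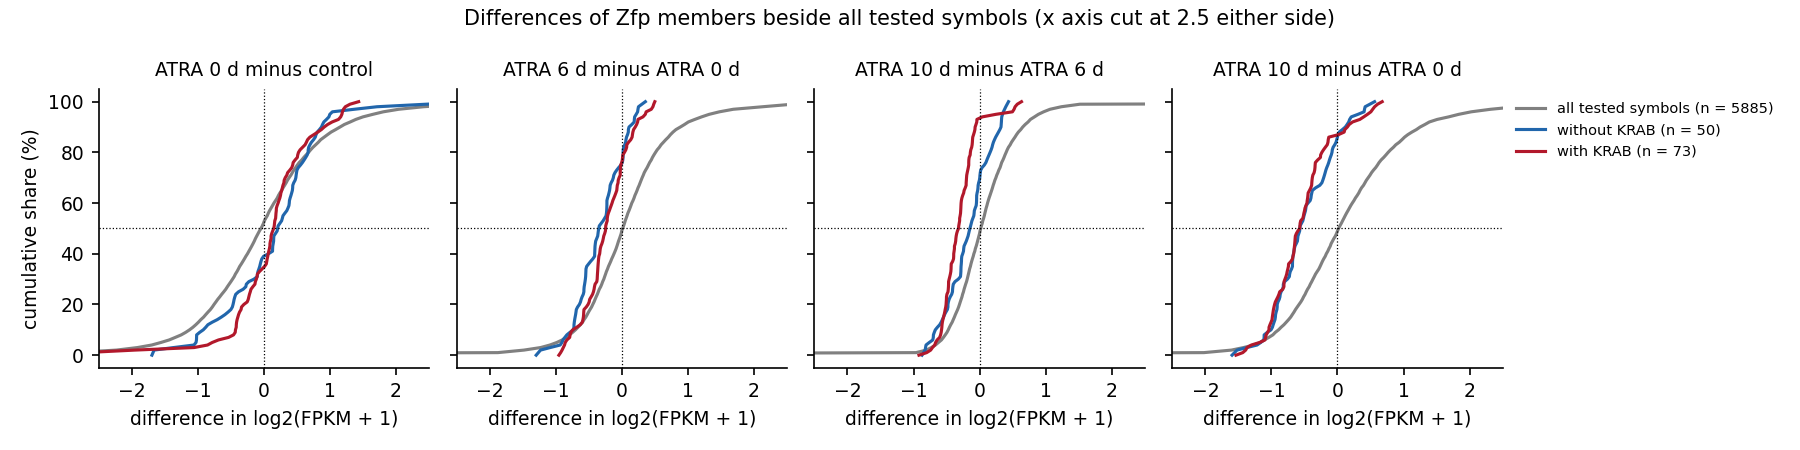
Cumulative share of genes (y axis, %) against the difference in log2(FPKM + 1) (x axis) for 4 comparisons, with all tested symbols in grey, Zfp members without a KRAB box in blue and with a KRAB box in red. Over most of their length the coloured curves lie left of the grey one in the 3 comparisons among ATRA libraries, and the red curve crosses 0 at about the share of KRAB members lower from 6 to 10 days (68 of 73).

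Genes of low level leaned the same way as the members, to a smaller degree. Among the 3428 symbols whose highest value was 20 FPKM or less, 55.1% were lower at 10 than at 0 days, with a median of -0.10. In the same band, 94 of 106 members were lower, with a median of -0.64. With no level required, 121 of the 140 Zfp symbols above 0 in some library were lower at 10 than at 0 days. Other zinc finger families in the table showed smaller medians for that comparison. The 18 Zbtb genes, which pair fingers with a BTB domain, had a median of -0.33 with 14 lower, the 8 Zscan and Zkscan genes had -0.35 with 6 lower, and the 14 Klf and Sp genes, factors of GC-rich promoters, had -0.39 with 10 lower. Parts of the pattern were shared by these families. Of the Zbtb genes 8 were highest at 0 days and 10 lowest at 10 days. The counts were 5 and 4 for Zscan and Zkscan, and 6 and 3 for Klf and Sp. Over all tested symbols the shares were 22.5% and 28.5%. From 0 to 6 days 16 of 18, 7 of 8 and 9 of 14 were lower by any amount (48.7% of all tested symbols). No test of the difference between families was possible with single libraries.

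KRAB members stood at lower levels than the others. Over all members the median differences of the classes lay furthest apart in the step from 6 to 10 days. Their median level was 3.25 FPKM in the control and 4.22, 3.19 and 2.06 FPKM at 0, 6 and 10 days, where the 50 other members had medians of 10.0, 10.2, 7.51 and 5.46 FPKM. From 6 to 10 days 68 of 73 KRAB members were lower by any amount, with a median of -0.32, against 34 of 50 other members, with a median of -0.15. Within the band up to 20 FPKM the counts were 67 of 71 and 30 of 35. The median differences of that step lay closer there, at -0.32 and -0.27. In this band the classes lay furthest apart at 0 days against the control, with medians of 0.16 and 0.38. KRAB levels in the band were still the lower ones, with medians of 2.91 FPKM at 6 days and 2.04 at 10 days against 5.87 and 4.41 FPKM. Between 0 and 10 days the classes had nearly the same median, -0.57 and -0.57, with 63 of 73 and 43 of 50 lower. At both steps 53 KRAB members and 24 of the others were lower. The 6 SCAN members were all lower at 10 than at 0 days, with differences from -0.96 to -0.40.

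**Figure D3:**
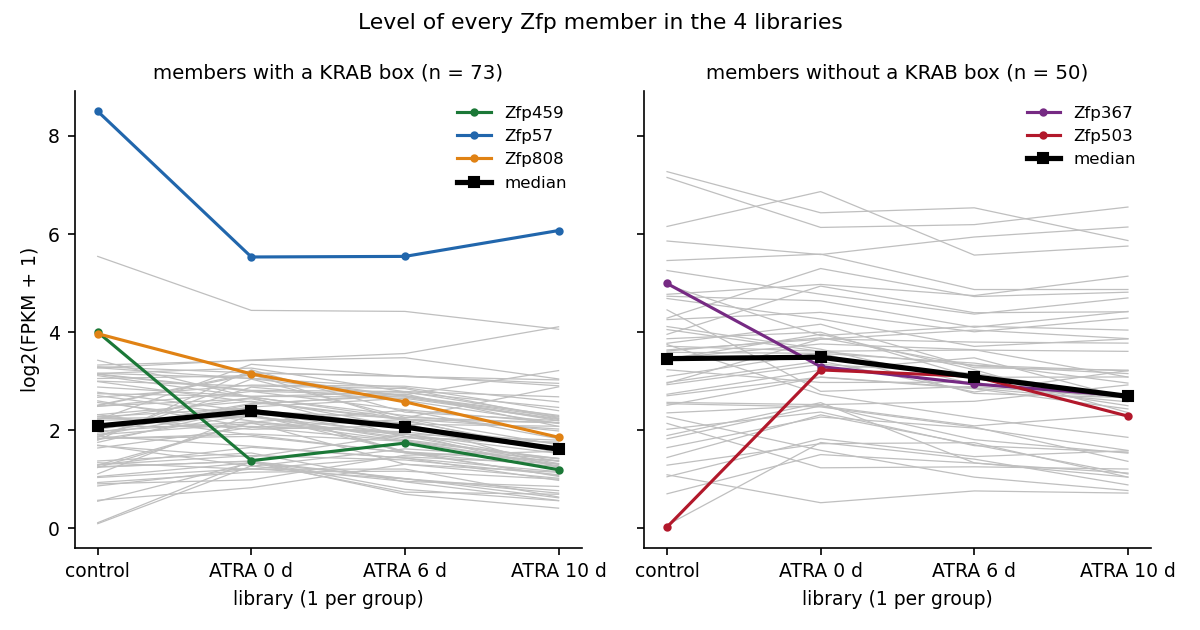
Level of each Zfp member in log2(FPKM + 1) (y axis), with a KRAB box on the left and without on the right. The x axis holds the control and the ATRA libraries labelled 0, 6 and 10 days, 1 library each. Grey lines are single genes, black squares the class median, and the 5 coloured genes have the widest ranges; both medians are highest at 0 days and lowest at 10 days.

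Beside all tested symbols the members were a narrow set with a few that stood apart. The range, the highest minus the lowest log2(FPKM + 1) of a gene, had a median of 0.81 over the members and 1.02 over all tested symbols. It reached 2-fold in 43 members, or 35.0%, against 51.8%. Of these, the control was the highest library of 21, 0 days of 21, 6 days of 1 and 10 days of 0, where the background held 20.4%, 9.28%, 4.21% and 17.9% of all tested symbols. A range above 1.93, the upper quartile plus 1.5 interquartile ranges of the members, set 5 genes apart: Zfp503, Zfp57, Zfp459, Zfp367 and Zfp808. Since these were picked for their range, their values are a description.

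Zfp57, a KRAB protein that binds methylated imprinting control regions and keeps them methylated, had the highest mean level of the members over the 4 libraries, set by the control. It stood at 362 FPKM in the control and at 45.3, 45.7 and 66.3 FPKM at 0, 6 and 10 days. The control alone was high, 7.98 times the level at 0 days, and the 3 ATRA libraries lay close together. Unlike most members Zfp57 was higher at 10 than at 0 days, by 0.54.

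Zfp459, a KRAB gene on chromosome 13, shared that shape at a lower level. It was at 15.0 FPKM in the control and at 1.61, 2.34 and 1.29 FPKM at 0, 6 and 10 days, a fall by 2.80 from the control to 10 days. Its exons overlap those of Gm48900 on the other strand, and no source used here says whether counting kept the strands apart, so the genes' reads may be mixed.

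Zfp367, a 2-finger protein without a KRAB box, was at 30.8 FPKM in the control and at 8.84, 6.70 and 5.50 FPKM at 0, 6 and 10 days. It kept falling after the first step, to a difference of -2.29 at 10 days against the control; its exons overlap Gm47513 on the other strand. Zfp808, a KRAB gene with 22 fingers, fell in near-even steps, at 14.7, 7.88, 4.97 and 2.62 FPKM. It is uncertain in level, because 28.2% of its 50-base windows also occur in transcripts of other genes and its value is the sum of 2 rows of the table, at 12.9 and 1.75 FPKM in the control and at 2.16 and 0.461 FPKM at 10 days.

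Zfp503 (Nolz1), a transcriptional regulator of the developing striatum and of spinal motor neurons, went the other way. It was at 0.0196 FPKM in the control, about 2 fragments on its longest transcript, and at 8.39, 7.57 and 3.88 FPKM at 0, 6 and 10 days. All 3 ATRA libraries were high and the control was near the floor, so no fold is given. On the log2(FPKM + 1) scale it was higher by 3.20 at 0 days and by 2.26 at 10 days, the one member called higher at 10 days. It then fell with the other members, by 0.94 between 0 and 10 days.

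**Figure D4:**
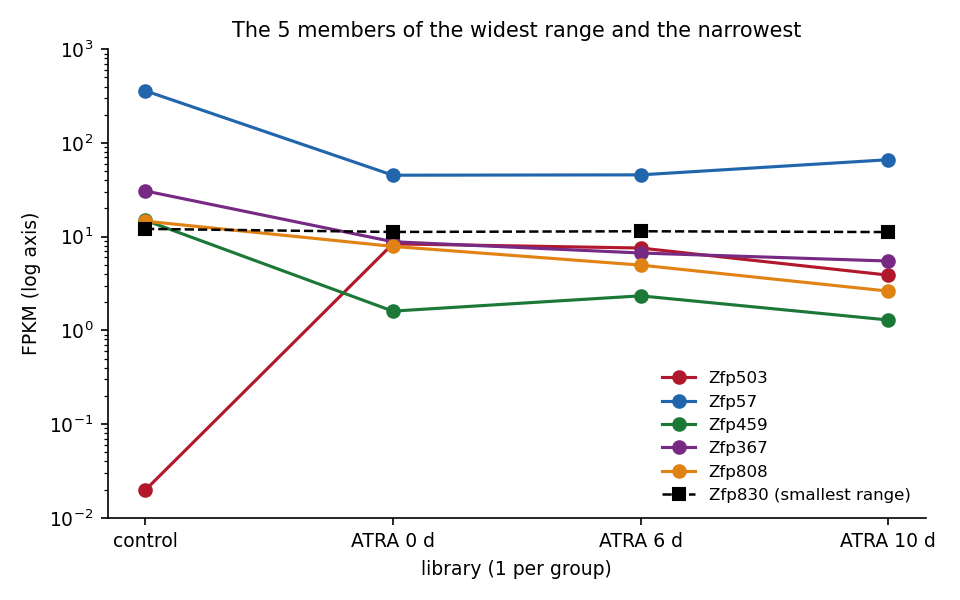
FPKM (y axis, log scale) of the 5 Zfp members of widest range and of Zfp830. Among members averaging 10 FPKM or more Zfp830 had the smallest range. The x axis holds the control and the ATRA libraries labelled 0, 6 and 10 days, 1 library each. Zfp57, Zfp459, Zfp367 and Zfp808 are highest in the control, Zfp503 is near 0 only in the control, and Zfp830 stays between 11.2 and 12.1 FPKM.

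The promoters of members that departed in different ways are shown so that their base composition can be read directly. They are the 300 bases from 250 before to 50 after the transcription start in RefSeq (build GRCm38.p6), 5′ to 3′ on the gene's strand, with each CpG in capitals; of the 3 starts that RefSeq lists for Zfp57, the one that equals the gene start of GENCODE is printed. Zfp57 (chr17:37000913-37001212, plus strand, 6 CpG) and Zfp459 (chr13:67421369-67421668, minus strand, 10 CpG) were high in the control. Zfp763 (chr17:33033332-33033631, minus strand, 9 CpG) and Zfp867 (chr11:59472425-59472724, minus strand, 10 CpG) were highest at 0 days and are called lower at 10 days. Zfp503 (chr14:21989552-21989851, minus strand, 19 CpG) was the only member called higher at 10 days against the control.
Zfp57: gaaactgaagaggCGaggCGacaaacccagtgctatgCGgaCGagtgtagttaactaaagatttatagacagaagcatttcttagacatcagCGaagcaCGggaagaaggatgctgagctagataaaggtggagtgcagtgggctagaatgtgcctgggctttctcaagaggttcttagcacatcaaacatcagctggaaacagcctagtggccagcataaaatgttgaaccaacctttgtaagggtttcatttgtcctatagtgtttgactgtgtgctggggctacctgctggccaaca
Zfp459: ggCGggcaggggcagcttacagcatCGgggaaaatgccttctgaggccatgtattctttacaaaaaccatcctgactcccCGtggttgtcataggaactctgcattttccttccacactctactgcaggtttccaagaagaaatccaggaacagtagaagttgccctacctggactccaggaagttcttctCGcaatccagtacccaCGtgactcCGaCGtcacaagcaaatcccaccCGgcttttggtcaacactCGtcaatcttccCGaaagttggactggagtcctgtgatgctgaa
Zfp763: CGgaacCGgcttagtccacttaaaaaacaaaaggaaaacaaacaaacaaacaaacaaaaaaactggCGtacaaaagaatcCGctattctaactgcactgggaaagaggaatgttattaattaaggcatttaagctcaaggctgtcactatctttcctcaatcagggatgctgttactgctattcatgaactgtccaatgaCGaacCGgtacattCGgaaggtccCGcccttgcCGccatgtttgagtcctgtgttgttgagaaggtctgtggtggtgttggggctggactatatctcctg
Zfp867: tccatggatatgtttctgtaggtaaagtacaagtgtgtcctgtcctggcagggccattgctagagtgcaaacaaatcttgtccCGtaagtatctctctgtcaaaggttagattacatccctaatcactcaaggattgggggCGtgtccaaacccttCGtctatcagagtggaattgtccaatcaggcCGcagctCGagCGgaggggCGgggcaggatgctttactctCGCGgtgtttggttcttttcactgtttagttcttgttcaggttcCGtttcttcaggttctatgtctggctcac
Zfp503: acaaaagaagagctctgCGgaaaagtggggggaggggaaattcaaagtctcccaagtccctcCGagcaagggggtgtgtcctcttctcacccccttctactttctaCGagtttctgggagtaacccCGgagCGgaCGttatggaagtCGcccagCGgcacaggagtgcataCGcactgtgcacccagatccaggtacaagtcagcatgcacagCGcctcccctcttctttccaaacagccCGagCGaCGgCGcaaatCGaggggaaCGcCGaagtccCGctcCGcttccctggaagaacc

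The 4 KRAB promoters hold 6 to 10 CpG and the Zfp503 promoter 19, and the medians of the members with a promoter showed the same contrast. RefSeq promoters were found for 92 of the 123 members, 116 in all, covering 58 of the 73 KRAB members and 34 of the 50 others. None was found for the 8 members of chromosome 18, all without a KRAB box. The 6 members of the chromosome 15 run described below had none either. Those of KRAB members had a median of 10 CpG and 51.7% G and C, those of the other members 20 CpG and 61.0%, beside 21 CpG and 61.3% for the promoters of all tested symbols and 7 CpG and 52.7% for all 32851 promoters of the table. Short motifs were searched on both strands. The shares count promoters, so a gene with several starts, often with overlapping windows, is counted more than once. CCGGAAG, the ETS core, occurred in 23.2% of KRAB promoters and 12.8% of the others, with 16.1% over the tested symbols and 8.86% over all promoters. GGGCGG, the GC box read by Sp factors, was in 34.8% and 61.7%, with 61.9% over the tested symbols and 35.7% over all; Zfp763 and Zfp867 hold it. ACTACAA, part of a longer promoter element, was in 10.1% and 8.51%, beside 4.01% and 3.24%, with the KRAB genes Zfp454 and Zfp169 each counted at overlapping starts. GCATGCGC, part of the NRF1 site, was in 0% and 6.38%, beside 5.29% and 2.71%. That 6.38% came from Zfp213 and from overlapping windows of Zfp346 alone. TATAAA was in 5.80% and 12.8%, beside 7.18% and 13.6%. Such a match describes letters in a window, and no binding was measured.

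Beyond the members of widest range, the first comparison named further genes on both sides. Called higher at 0 days than in the control were Zfp503, Zfp608, Zfp867, Zfp287, Zfp85, Zfp354c, Zfp641, Zfp251, Zfp395 and Zfp647, of which 7 carry a KRAB box. Zfp287, at 0.0843, 1.59, 0.620 and 0.331 FPKM, reached the inclusion level only at 0 days, so its call rests on the library that admitted it. Zfp641 likewise reached that level only at 0 days, at 1.42 FPKM, so its call also rests on the library that admitted it. Zfp867 was at 2.48 FPKM in the control, 8.40 at 0 days, and 4.17 and 3.58 FPKM at 6 and 10 days. Zfp354c had the same shape, at 2.62, 7.25, 3.80 and 3.45 FPKM. In both the library at 0 days stood alone above the other 3. Zfp251 was at 3.63 FPKM in the control and stayed higher in every ATRA library, at 9.16, 7.56 and 6.76 FPKM. Zfp608, without a KRAB box, was at 0.0489 FPKM in the control, about 7 fragments, and at 2.37, 1.66 and 0.849 FPKM. Zfp85 was at 1.16, 3.99, 1.95 and 1.60 FPKM, but 24.2% of its windows occur in other genes and its exons overlap those of Zfp85os on the other strand.

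Called lower at 0 days than in the control were Zfp57, Zfp459, Zfp367, Zfp532, Zfp7, Zfp277, Zfp706 and Zfp654. Zfp532 was at 20.9 FPKM in the control and at 5.93, 6.43 and 5.30 FPKM in the ATRA libraries, which did not differ much among themselves. Zfp277 was at 30.2 FPKM and then 14.2, 16.4 and 15.5 FPKM, also flat after the first step. Zfp654 kept falling, at 12.4, 5.64, 3.76 and 2.62 FPKM. Zfp7, a KRAB gene, was at 45.7, 20.8, 20.5 and 15.7 FPKM, with 14.1% of its windows shared with other genes. Zfp706, the smallest protein here with 76 residues, was at 141 FPKM in the control and at 69.3, 72.1 and 92.7 FPKM, with exons that overlap Gm26766 on the other strand. Zfp7, Zfp277, Zfp706 and Zfp654 are called with differences of -1.10, -1.03, -1.02 and -1.02, near the line.

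The 15 members called lower at 10 than at 0 days were Zfp62, Zfp763, Zfp318, Zfp811, Zfp945, Zfp808, Zfp521, Zfp36l1, Zfp488, Zfp65, Zfp386, Zfp184, Zfp729b, Zfp867 and Zfp354a, and 10 of them carry a KRAB box. Zfp62, with 26 fingers, was at 9.95, 14.5, 8.41 and 4.14 FPKM in the control and at 0, 6 and 10 days. Zfp763 was at 4.67, 7.81, 3.56 and 2.04 FPKM in the same order. Both were highest at 0 days and lower than the control at 10 days. Zfp811 gave 2.37, 4.48, 1.96 and 1.09 FPKM, a 4.13-fold lower FPKM at 10 than at 0 days. Zfp945 gave 3.84, 4.49, 1.91 and 1.10 FPKM, or 4.07-fold lower. Zfp386 was at 2.51, 4.01, 3.45 and 1.36 FPKM. Zfp65 was at 3.73, 3.88, 2.84 and 1.27 FPKM. These 2 genes had their larger difference from 6 to 10 days, at -0.92 and -0.76.

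Few members went up among the ATRA libraries. Those higher at 10 than at 0 days were Zfp707, Zfp119a, Zfp622, Zfp57, Zfp53, Zfp13, Zfp706, Zfp385c, Zfp52, Zfp758, Zfp750, Zfp414, Zfp54, Zfp277, Zfp947, Zfp943 and Zfp410. Zfp707, a KRAB gene of chromosome 15, was at 8.66, 9.80, 10.8 and 16.3 FPKM in the control and at 0, 6 and 10 days, highest at 10 days. Zfp119a, at 0.877, 0.986, 1.81 and 1.97 FPKM, had the same order near the inclusion level. Zfp53 was at 5.85, 4.22, 3.76 and 6.39 FPKM and Zfp13 at 7.81, 5.94, 5.61 and 8.30 FPKM. In these 2 KRAB genes of chromosome 17 the control and 10 days were both above the middle libraries. None of the 17 reached 2-fold.

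Some members, with or without a KRAB box, have roles known from other work. Zfp36l1, which binds AU-rich elements and speeds the decay of messenger RNAs, was at 70.3, 116, 46.5 and 53.0 FPKM in the control and at 0, 6 and 10 days. Its value at 0 days stood alone, and its drop of 1.29 to 6 days was the largest of all members for that step; its exons overlap Gm26669 on the other strand. Of the other decay factors listed for this family, none was analysed here.

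Among factors of pluripotency and imprinting, 4 of 18 listed genes were in the table: Zfp57, Zfp281, Zfp322a and Zfp219. Zfp281, a regulator of the exit from pluripotency, was at 16.3 FPKM in the control and at 11.6, 6.69 and 5.32 FPKM at 0, 6 and 10 days, lower in each library than in the one before. Its 10-day level was called lower than the control, as was that of Zfp57. Zfp322a, a stem cell self-renewal factor, was at 6.62, 9.15, 7.95 and 5.42 FPKM and was not called in any comparison. Zfp219 stayed between 15.1 and 20.2 FPKM, with exons that overlap Arhgef40 and Tmem253.

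Among neural and tissue differentiation factors, 10 of 21 listed genes were members, 2 called higher at 0 days than in the control, Zfp503 and Zfp608 (12.2% of all tested symbols), and 0 lower (12.8%). At 10 against 0 days 0 were called higher (14.4%) and 3 lower (7.6%), Zfp318, Zfp521 and Zfp488, with a list median of -0.90. Zfp521, a many-fingered regulator that promotes the neural fate of embryonic stem cells, was at 1.72, 3.97, 2.26 and 1.16 FPKM, highest at 0 days. Zfp488, a factor of oligodendrocytes, was at 4.82, 4.57, 3.19 and 1.58 FPKM, with 15.0% of its windows shared. Zfp318, which controls the splicing of IgD in B cells, was at 2.72, 4.91, 1.53 and 1.06 FPKM and passed 2-fold already at 6 days. The neural marker sum was highest at 6 days, and none of these 10 genes was. The remaining ones were not called at any step between ATRA libraries: Zfp516 was at 12.7, 16.9, 8.68 and 8.36 FPKM, Zfp148 at 5.51, 7.49, 6.27 and 4.98 FPKM, and Zfp191, needed for myelination, at 10.1, 12.5, 11.5 and 7.48 FPKM. Zfp365 was at 3.41 FPKM in the control and between 1.31 and 1.39 FPKM after ATRA, and Zfp750, a factor of skin differentiation, at 1.13, 0.438, 0.698 and 0.647 FPKM.

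Among factors of RNA, ribosomes, the spindle, ubiquitin and SUMO, 8 of 15 listed genes were members, and 0 were called between any pair of ATRA libraries. Zfp207 (BuGZ), a spindle and kinetochore protein, was at 154 FPKM in the control and at 85.4, 91.7 and 57.4 FPKM, and was the only one called lower at 10 days than in the control. Zfp622, which helps mature the large ribosomal subunit, was at 57.0, 46.9, 60.4 and 69.7 FPKM, rising from 0 to 10 days. Zfp830, a protein of the splicing machinery, was nearly level, at 12.1, 11.2, 11.4 and 11.2 FPKM, with the smallest range of all members, 0.10. Zfp598, a ubiquitin ligase for collided ribosomes, was at 37.2, 26.3, 19.7 and 24.96 FPKM. Zfp451, a SUMO ligase, was at 13.6, 15.0, 7.46 and 7.50 FPKM, down in the 2 later libraries by 0.92 and 0.91 from 0 days. Zfp346, which binds double-stranded RNA, was at 11.3, 13.8, 8.94 and 7.91 FPKM. Zfp385a was at 14.5, 29.7, 20.1 and 20.3 FPKM and its relative Zfp385c at 4.94, 4.75, 5.03 and 6.59 FPKM.

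Members sit in runs of neighbours, and runs differed. With starts at most 1 Mb apart and at least 4 members, 6 runs held 60 of the 123 members. The run at chr13:67121660-67827002 held 16 members, all with a KRAB box. Their FPKM summed to 62.3 in the control and 50.5, 43.6 and 28.5 at 0, 6 and 10 days. Of these sums Zfp459 alone gave 15.0 FPKM in the control and 1.61 at 0 days. At 0 days against the control the run's median difference was 0.10, with 6 of 16 lower. All 16 were lower at 10 than at 0 days, with a median of -0.61. The second of the chromosome 17 runs, chr17:32765496-33631779, held 13 members, 12 with KRAB, and behaved alike, with 12 of 13 lower and a median of -0.77; the exception was Zfp414, its member without KRAB, at 26.3, 30.4, 25.8 and 34.3 FPKM, which shares 26.3% of its windows with other genes.

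The first run on chromosome 17, chr17:21008903-23599487, held 17 members, 16 with KRAB, and departed from that shape. Only 10 of 17 were lower at 10 than at 0 days, with a median of -0.34, and 9 of the 17 were highest at 6 days, where 14 of all 123 members were (9.65% of all tested symbols). Zfp946 was at 1.36, 3.49, 4.30 and 2.55 FPKM and Zfp52 at 2.22, 1.74, 2.78 and 2.48 FPKM, both highest at 6 days. In the same run Zfp945 fell by 1.38 between 0 and 10 days, so the run was not uniform. Against the control the run's median at 10 days was -0.09, beside -0.59 for the chromosome 13 run and -0.76 for the other chromosome 17 run. A run of 6 members at chr15:75616679-76925448 had a median of 0.50 at 10 days against the control, with 2 of 6 lower, Zfp7 and Zfp41, while Zfp707, Zfp623 and Zfp251 were higher. Its summed FPKM went the other way, from 73.1 in the control to 60.1 at 10 days. Zfp623 was at 6.78 FPKM in the control and at 13.5, 12.9 and 12.7 FPKM after ATRA. The 2 runs of chromosome 11, at chr11:50811086-51072799 and chr11:58307069-59472474, held 4 members each, and all 8 were lower at 10 than at 0 days.

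**Figure D5:**
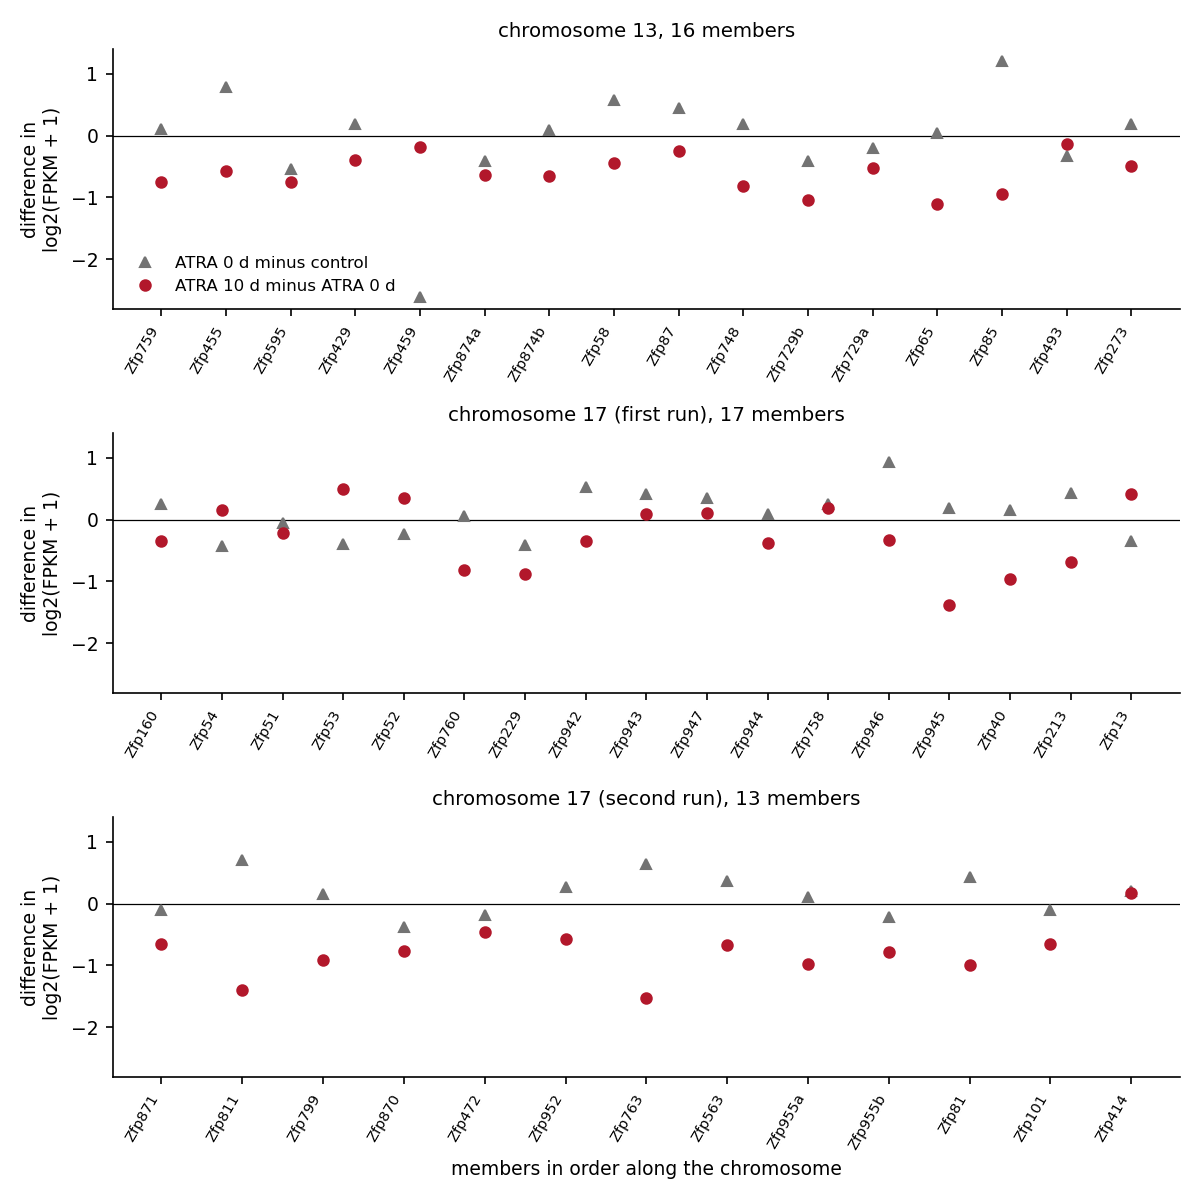
Difference in log2(FPKM + 1) (y axis) of 0 days minus control (grey triangles) and of 10 minus 0 days (red circles). Each Zfp member of the 3 largest runs is shown, in order along the chromosome (x axis). All 16 red circles of chromosome 13 lie below 0, and 10 of 17 in the first chromosome 17 run do.

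Neighbours of this family are often near copies, which bears on their values. At least 50% of the 50-base windows of Zfp781, Zfp935, Zfp955a, Zfp960 and Zfp97 occur in transcripts of other genes, and these levels are uncertain. Over the members, 34 share 5% or more of their windows, 30 of them with a KRAB box, and 39 have exons that overlap another gene's. Without the 34, 77 of 89 members were lower at 10 than at 0 days, and without the 39, 74 of 84 were. These shares, 86.5% and 88.1%, are close to the 86.2% over all members.

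Of the 33 genes listed for the machinery that KRAB proteins recruit, 19 were in the table, all tested, and Trim28 was not among those analysed here. At 0 days 2 were called higher (12.2% of all tested symbols) and 2 lower (12.8%) than in the control, with a list median of -0.43. Dnmt3l, a cofactor of DNA methylation, was at 202 FPKM in the control and at 15.0, 15.2 and 14.4 FPKM, and Uhrf1, which guides maintenance methylation, at 177, 42.1, 47.1 and 29.0 FPKM. Both were high only in the control, as Zfp57 was. Dnmt3a was at 5.97, 20.4, 10.1 and 7.21 FPKM, highest at 0 days, and Chd3, a remodeller, at 2.82, 11.2, 16.8 and 13.6 FPKM. From 0 to 10 days 0 were called higher (14.4%) and 3 lower (7.6%), with a list median of -0.27, and at 10 days against the control 1 was higher (19.6%) and 8 lower (17.1%). Mphosph8, a subunit of the HUSH silencing complex, was at 25.2, 26.4, 16.6 and 9.18 FPKM, and Fam208a of the same complex at 17.9, 12.8, 9.54 and 6.88 FPKM. Cbx1, a heterochromatin protein 1, was at 219, 196, 155 and 98.5 FPKM, lowest at 10 days. Not every partner fell: Daxx was at 47.8, 93.7, 57.6 and 82.5 FPKM. How the level of this machinery relates to that of the KRAB members was not tested.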

How the data were processed

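RNA of 4 embryoid body libraries, 1 per group by the labels, was measured by sequencing of oligo(dT)-primed cDNA, per the labels' protocols. The deposited values are FPKM, per the file headers; Trimmomatic, TopHat, Cufflinks and mm10 are named per the submitters' processing notes, while the sources used here name no annotation, strand setting or filter. The FPKM unit divides by library total and transcript length, so abundant transcripts lower all others, and reads of similar genes are split by a model.

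Rows of a repeated symbol were summed (4 Zfp symbols). Differences were taken on log2(FPKM + 1) for symbols reaching 1 FPKM in some library and called at 2-fold. With 1 library per group there is no test, SD or p-value. Members and lists were chosen with earlier results of these data known. Named members are in each of 5 comparisons the 6 genes that rose most and the 6 that fell most, among those reaching 2 FPKM, the 10 most abundant, those of widest range, the 5 of smallest range averaging 10 FPKM or more, the role lists, and the 5 on either side of the inclusion level; other members named were chosen after their values were seen.

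Protein classes come from pattern matches (at least 70% of positions for KRAB) to translated GENCODE M21 transcripts, in place of the RefSeq proteins first planned. Depth was estimated from transcripts of 800 nt or more. Alternatives were pseudocounts, filters, scalings and call thresholds; dropping members with shared windows or overlapping exons, and using the highest row of a repeated symbol, were chosen after seeing the data. Python 3.11.15, pandas 2.3.3 and numpy 2.4.6 were used.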

Additional observations from a re-analysis of the deposited data

How the results depend on the processing

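No median difference of the members, and no called difference of a named member, changed sign under the alternatives run, and 106 of 123 members were lower at 10 than at 0 days with a pseudocount of 0.1 or 0.5 as well. The balance of calls at 0 days against the control, 10 higher and 8 lower, turned under the 4-fold threshold and the 5 FPKM filter, which gave 6 higher and 8 lower. With a pseudocount of 0.1 the calls lower were 9 (0 to 6 days), 5 (6 to 10 days), 43 (0 to 10 days) and 34 (control to 10 days), against 8.04%, 3.14%, 12.4% and 20.7% of all tested symbols, those higher 17 (control to 0 days) and 5 (control to 10 days), against 18.9% and 24.9%, and of the 2-fold ranges 38, 4 and 1 were highest at 0, 6 and 10 days; the medians became -0.38 (6 to 10 days), -0.74 (0 to 10 days) and -0.54 (control to 10 days). With 0.5 they were 16 higher at 0 days, 6, 1 and 29 lower at the 3 later comparisons among ATRA libraries, 3 higher at 10 days than in the control (15.4%, then 6.12%, 1.67% and 9.75%, then 22.5% of all), and 2 ranges highest at 6 days. With a filter at 5 FPKM (72 members) there were 6 higher at 0 days, 1 and 6 lower from 0 to 6 and 0 to 10 days (11.8%, 4.50% and 7.41% of all), and 9 and 0 ranges highest at 0 and 6 days.

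Either scaling had 124 members. Median-ratio scaling gave 4 lower and a median of 0.29 at 0 days, and at 10 days against the control 2 higher and a median of -0.28, with 1 range highest at 10 days; it moved the median of all tested symbols by 0.12 and 0.15. Upper-quartile scaling gave 4 lower and a median of 0.35 at 0 days, 1 lower from 6 to 10 days (1.29% of all), 29 lower (10.4%) and a median of -0.70 from 0 to 10 days, and 32 ranges highest at 0 days; the all-symbol median moved by 0.19, -0.11 and -0.12. Against the control at 0 days the background calls became 14.6% higher and 9.47% lower, then 16.1% and 8.43%, and at 10 days 22.5% and 13.1%, then 20.9% and 14.6%.

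At a 4-fold threshold 1 was higher and 2 lower at 0 days, 0 and 0 lower from 0 to 6 and 0 to 10 days, 4 lower from the control to 10 days (3.26% higher, then 2.60%, 0.799%, 1.05% and 3.21% lower of all), and 4, 1 and 0 ranges highest in the control and at 0 and 6 days. At 1.5-fold these were 25 higher, 13, 23, 60 and 49 lower, and 34, 53 and 8 ranges (3 at 10 days), with 14 lower and 1 higher from 6 to 10 days, 1 higher from 0 to 10 days and 8 higher at 10 days than in the control; the shares of all tested symbols were 22.6% higher, 25.7%, 13.3%, 19.9% and 29.2% lower, then 5.91% and 12.1%, 25.9% and 29.7%. Without members sharing windows 5 were lower at 0 days, 12 lower at 10 days against the control and 11 ranges highest in the control; without overlapping exons these were 3, 14 and 12, and 1 lower from 0 to 6 days. Fewer members explain these last counts by construction; elsewhere the cause was not tested. No paired analysis was possible because each group has 1 library, and no library could be left out. Low members are limited by depth, since 3 fragments on 1 kb are worth 0.110 to 0.122 FPKM.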
